A study of Mus musculus with 13 samples.

Results

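The genes described here are 8 regulators and fusion proteins of skeletal muscle: Pax7, Myf5, Myod1, Myf6, Mef2c, Cdh15, Tmem8c (the myomaker gene) and Gm7325 (the myomixer gene). They were selected by name out of 24015 genes in the deposited expression table, with earlier results of these data known, so their values are given as a description and the call of 1 member is no independent evidence. No threshold on any value was used to choose them, and all 8 were found in the table. RNA from whole-muscle lysates of quadriceps of C57BL/6 mice was measured in 13 libraries. Aged mice (labelled as over 24 months) given SW033291 (3 libraries, replicates 1, 4 and 6) and aged mice given vehicle (3 libraries, replicates 2, 3 and 8) formed batch 2. Aged mice given vehicle (3 libraries, replicates 2, 3 and 4) and mice 3 months old given vehicle (4 libraries, replicates 1, 3, 4 and 5) formed batch 1. SW033291, which blocks 15-PGDH, an enzyme that breaks down prostaglandins, was injected into the peritoneum every day at 5 mg/kg for 4 weeks, and vehicle, an ethanol, Cremophor and dextrose solution, was given in the same way. No young mice were given SW033291, and a whole-muscle lysate mixes fibres with the other cells of the tissue.

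Muscle stem cells, called satellite cells, lie under the sheath of the fibre and carry the paired-box factor PAX7. When they are activated, the basic helix-loop-helix factors MYF5 and MYOD start the myogenic programme, and myogenin and MRF4 (the product of Myf6) act later, with MEF2 proteins such as MEF2C as partners. The helix-loop-helix factors bind a short DNA word, the E-box. Myoblasts then meet through adhesion molecules such as M-cadherin (Cdh15), and their membranes merge through myomaker and the small membrane protein myomixer. In resting adult muscle MRF4 and MEF2C are made by the fibre nuclei, whereas both fusion proteins are associated with regeneration.

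The values are TPM, transcript abundances scaled for transcript length and library total, and they keep no record of sequencing depth. Counting error and detection limits are therefore unknown, and a gene listed at 0 may be present. The labels do not say whether libraries of a group came from separate mice, so p-values measure the spread between libraries only. The quadriceps label was met by its markers: 11 of 12 skeletal muscle markers stood at 1 TPM or more in all 13 libraries, and the other, the slow myosin Myh7, was at 0.31 to 74.3 TPM. Gene names in the deposited table stood on the wrong rows and were restored, and every value rests on the restored order. Aged vehicle batch 1 replicate 4 stood apart. Its Pearson correlations with the other libraries of its group, over all genes, included the lowest of any group, 0.973, and its 10 neutrophil markers summed to 1766 TPM, against 0.87 and 5.49 TPM in the other libraries of its group. Results that move with this library are given with and without it.

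In length-scaled TPM averaged over the 13 libraries, the members fell into 3 tiers. Mef2c (172.6 TPM) and Myf6 (155.3 TPM) were the most abundant, above 96.3% and 95.9% of the 17856 genes detected in any library. Myod1 (19.9 TPM) and Cdh15 (14.3 TPM) formed the middle tier. Gm7325 (1.06 TPM), Tmem8c (0.531 TPM), Myf5 (0.429 TPM) and Pax7 (0.416 TPM) were near the floor, with Pax7 above 29.5% of detected genes. No library of one tier overlapped the next: the lowest Myf6 value was 108.8 TPM and the highest Myod1 value 28.1 TPM, and the lowest Cdh15 value was 8.49 TPM and the highest Gm7325 value 2.98 TPM. Within each tier the ranges of neighbouring genes overlapped. Myogenin (Myog), the muscle helix-loop-helix factor outside the set, averaged 5.52 TPM.

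**Figure D1:**
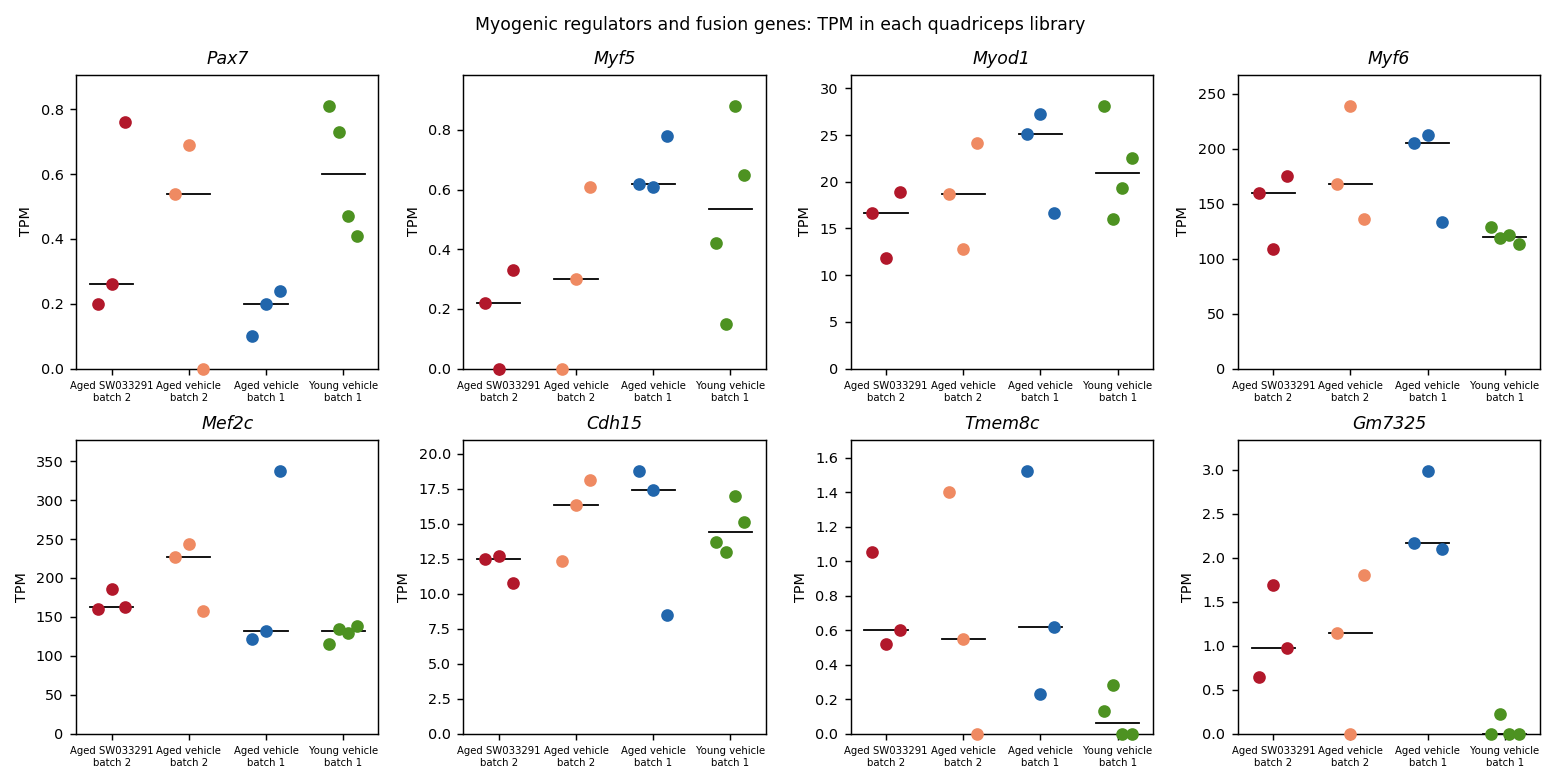
TPM of the 8 genes (vertical axes, each from 0) in the 13 libraries, 1 dot per library, by group along the horizontal axis; the line is the group median. Gm7325 stands at 2.10 to 2.98 TPM in aged vehicle libraries of batch 1 and at 0 to 0.23 TPM in young ones, and 1 aged vehicle library of batch 1 stands alone at 337 TPM for Mef2c.

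Both factors of the stem cell and early myoblast stage were scarce in every library. Pax7 was at 0.20, 0.26 and 0.76 TPM in aged SW033291 libraries, against 0.54, 0.69 and 0 TPM in aged vehicle libraries of batch 2. In batch 1 it was at 0.10, 0.20 and 0.24 TPM in aged vehicle libraries, against 0.81, 0.73, 0.47 and 0.41 TPM in young vehicle libraries. All 3 aged libraries of batch 1 thus lay below all 4 young ones, whereas aged libraries of batch 2 reached 0.76 TPM. Among the 17856 genes detected, 2.17% were lower in aged vehicle without overlap in this way. The difference was -0.44 on the log2(TPM + 1) scale, and an exact two-sided permutation test gave p = 0.0571, the smallest that 3 against 4 libraries allow. With all detected genes in a limma model the adjusted p was 0.551. At values this low, counting error, fewer satellite cells and less Pax7 RNA per cell cannot be told apart in bulk RNA. In the authors' deposited table of SW033291 against vehicle, Pax7 had a mean normalised level of 3.73 and a log2 fold change of 0.29 (SE 1.13).

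Myf5, which together with MyoD commits cells to the muscle lineage, was at 0.22, 0 and 0.33 TPM in aged SW033291 libraries, against 0, 0.30 and 0.61 TPM in aged vehicle libraries of batch 2. The aged vehicle libraries of batch 1 had 0.62, 0.61 and 0.78 TPM, against 0.42, 0.15, 0.88 and 0.65 TPM in the young vehicle libraries. The groups overlapped in both comparisons, and exact two-sided permutation tests gave p = 0.8 for SW033291 and p = 0.571 for age. Neither Pax7 nor Myf5 reached 1 TPM in any library, so both were below the filter of 1 TPM in at least 3 libraries and were not among the 6 members tested across all genes. Myf5 and Myf6 are neighbours on chromosome 10, with 0 protein-coding genes between them in the RefSeq annotation, yet Myf6 was among the 2 most abundant members and Myf5 among the 4 scarce ones.

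Myod1, the myoblast determination factor, was at 16.6, 11.9 and 18.95 TPM in aged SW033291 libraries, against 18.7, 12.8 and 24.2 TPM in aged vehicle libraries of batch 2. Within batch 1, aged vehicle libraries were at 25.1, 27.2 and 16.6 TPM, against 28.1, 16.1, 19.3 and 22.6 TPM in young vehicle libraries. The groups overlapped throughout. The log2 difference was -0.20 (SE 0.26, 95% interval -0.76 to 0.36, limma adjusted p = 0.778) for SW033291 and 0.09 (SE 0.24, -0.43 to 0.61, limma adjusted p = 0.953) for age. These intervals leave room for changes of either sign.

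Myf6, whose product MRF4 is the main factor of this family in mature fibres, was at 159.6, 108.8 and 175.5 TPM in aged SW033291 libraries, against 167.7, 238.7 and 135.9 TPM in aged vehicle libraries of batch 2. In batch 1 it was at 204.9, 212.6 and 133.02 TPM in aged vehicle libraries, against 129.1, 118.7, 121.4 and 112.9 TPM in young vehicle libraries. The young libraries were tightly grouped, 120.5 ± 6.73 TPM (SD, n = 4), and all 3 aged ones of batch 1 lay above them, at 183.5 ± 43.9 TPM (SD, n = 3). Of all tested genes, 11.6% had no overlap in this comparison, in either direction. The log2 difference with age was 0.57 (SE 0.21, 95% interval 0.13 to 1.02), with an unadjusted p of 0.0156 in limma that did not pass adjustment over all genes (adjusted p = 0.313). Replicate 4, the aged library that stood apart, was the one nearest to the young libraries, and without it the difference was 0.79 (limma adjusted p = 0.105). As deviations from the group means, Myf6 and the summed neutrophil markers had a Pearson r of -0.73 over the 13 libraries and of -0.49 without replicate 4. The lymphocyte markers were close, at -0.71 (-0.47 without replicate 4). The part of these cells in the Myf6 values was not tested. For SW033291 the difference was -0.28 (SE 0.22, -0.75 to 0.20, limma adjusted p = 0.65).

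Myogenin, which drives terminal differentiation, was at 4.78, 4.54 and 4.29 TPM in aged SW033291 libraries, against 6.71, 1.30 and 8.42 TPM in aged vehicle libraries of batch 2. The aged vehicle libraries of batch 1 had 7.24, 11.3 and 6.53 TPM, against 5.30, 4.49, 3.50 and 3.29 TPM in the young vehicle libraries. As with Myf6, the aged libraries of batch 1 lay above all young ones, while 11.6% of tested genes had no overlap in this comparison, in either direction. The Myog log2 difference of 0.85 (SE 0.37) did not pass (limma adjusted p = 0.468).

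**Figure D2:**
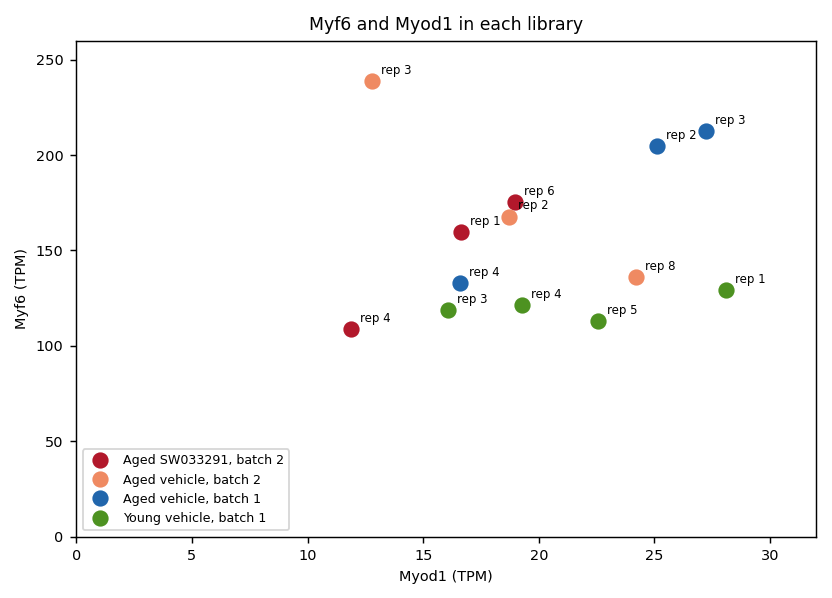
Myf6 (vertical axis, TPM) against Myod1 (horizontal axis, TPM) in the 13 libraries, 1 dot per library, coloured by group and numbered by replicate. The 4 young libraries lie between 112.9 and 129.1 TPM of Myf6 while their Myod1 runs between 16.1 and 28.1 TPM.

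Mef2c, the MADS-box partner of the myogenic factors, was at 160.1, 185.5 and 162.3 TPM in aged SW033291 libraries, against 227, 243.7 and 157.8 TPM in aged vehicle libraries of batch 2. Within batch 1, aged vehicle libraries were at 122, 131.8 and 336.9 TPM, against 114.8, 134.4, 129.1 and 138.5 TPM in young vehicle libraries. A single library, aged vehicle batch 1 replicate 4, carried the higher aged mean of 196.9 ± 121 TPM (SD, n = 3), against 129.2 ± 10.3 TPM in young libraries (SD, n = 4). With it the log2 difference with age was 0.44 (SE 0.27, 95% interval -0.14 to 1.03, limma adjusted p = 0.673), and without it -0.02 (adjusted p = 0.981). For SW033291 the difference was -0.28 (SE 0.29, -0.91 to 0.34, limma adjusted p = 0.72). Between the aged vehicle groups, batch 2 against batch 1, Mef2c differed by 0.23 (SE 0.29, limma adjusted p = 0.736), and without replicate 4 of batch 1 by 0.70 (limma adjusted p = 0.0141), which passed the threshold. In that fit 1643 of 11876 genes passed, against 267 with all libraries, so the call is not particular to Mef2c.

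Neutrophil transcripts moved with Mef2c in this library. The summed TPM of the 10 neutrophil markers ran from 6.33 to 233.7 in aged SW033291 libraries, from 7.81 to 780.3 in aged vehicle libraries of batch 2, from 0.87 to 1766 in aged vehicle libraries of batch 1 and from 0.88 to 2.92 in young vehicle libraries. All 10 were above 0 in only 3 libraries, aged SW033291 replicate 4, aged vehicle batch 2 replicate 2 and aged vehicle batch 1 replicate 4, and 6 of 10 were at 0 in all young libraries. Red cell markers were also highest in aged vehicle batch 1 replicate 4, at 3754 TPM, followed by aged vehicle batch 2 replicate 2, at 2176 TPM. The part of these cells in the Mef2c values was not tested. The second highest Mef2c value, 243.7 TPM, came from aged vehicle batch 2 replicate 3, whose neutrophil markers summed to 7.81 TPM. Over the 13 libraries, as deviations from the group means, Mef2c and the neutrophil sum had a Pearson r of 0.77, and of 0.26 without aged vehicle batch 1 replicate 4. Of the other MEF2 genes, Mef2a was at 61.1, 78.8 and 53.0 TPM in aged vehicle libraries of batch 2 and at 35.9, 38.7 and 75.4 TPM in those of batch 1, so that its highest value was in batch 2 replicate 3 and its next in batch 1 replicate 4. Mef2d was at 47.5 TPM in batch 1 replicate 4, against 71.8 and 87.9 TPM in the other aged vehicle libraries of batch 1.

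**Figure D3:**
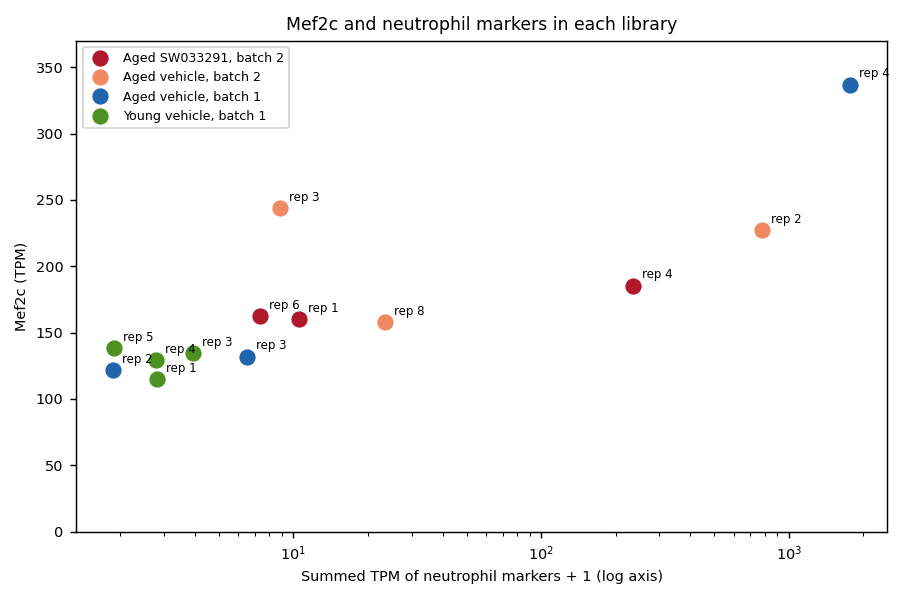
Mef2c (vertical axis, TPM) against the summed TPM of 10 neutrophil markers plus 1 (horizontal axis, log scale), 1 dot per library, coloured by group and numbered by replicate. Aged vehicle batch 1 replicate 4 is highest on both axes, at 336.9 TPM of Mef2c and 1766 TPM of neutrophil markers, while aged vehicle batch 2 replicate 3 has 243.7 TPM of Mef2c at a neutrophil sum of 7.81 TPM.

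Cdh15, which encodes the adhesion molecule M-cadherin of satellite cells and myoblasts, was at 12.5, 12.7 and 10.8 TPM in aged SW033291 libraries, against 12.3, 16.3 and 18.1 TPM in aged vehicle libraries of batch 2. In batch 1 it was at 18.8, 17.4 and 8.49 TPM in aged vehicle libraries, against 13.7, 12.97, 17.0 and 15.2 TPM in young vehicle libraries. The SW033291 libraries were the most even, at 12.01 ± 1.07 TPM (SD, n = 3), against 15.6 ± 2.97 TPM in aged vehicle libraries of batch 2 (SD, n = 3), and the ranges overlapped. The log2 difference was -0.34 for SW033291 (SE 0.24, 95% interval -0.85 to 0.17, limma adjusted p = 0.617) and -0.05 for age (SE 0.22, -0.53 to 0.43, limma adjusted p = 0.971). The lowest value, 8.49 TPM, was in aged vehicle batch 1 replicate 4, without which the difference with age was 0.29 (limma adjusted p = 0.525). As deviations from the group means, Cdh15 and the summed red cell markers had a Pearson r of -0.91 over the 13 libraries and of -0.70 without that library. The neutrophil sum had one of -0.79 (-0.37 without it) and the skeletal muscle sum one of 0.72 (0.28 without it). Whether the transcripts of these lists had a part in the Cdh15 values was not tested.

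Promoter windows of 250 bases before to 50 bases after the start, from RefSeq on GRCm38.p6, were available for 4 members and are shown because E-boxes are the sites that the myogenic factors bind. An E-box was searched as CANNTG, a pattern that reads the same on both strands, and each match is in capitals. Cdh15 of the middle tier, on chromosome 8, held 4 E-boxes, and 6.49% of all 32851 promoters of the same length held at least 4. The first of 3 Mef2c starts, on chromosome 13, held 2, and 39.6% of promoters held at least 2, whereas its other starts held 0 and 1. The scarce genes Myf5, on chromosome 10, and Pax7 held 0, whereas 72.3% of promoters held at least 1. The MEF2 motif, present in 0.557% of promoters, was not found in these windows. A match describes the letters of this window alone. The pattern leaves its middle bases open, so a match need not be a site of the myogenic factors, and binding was not measured. The windows below are Cdh15 at chr8:122848124-122848423 (plus strand), Mef2c at chr13:83503784-83504083 (plus strand) and Myf5 at chr10:107486085-107486384 (minus strand), each written 5′ to 3′ along its gene.
Cdh15: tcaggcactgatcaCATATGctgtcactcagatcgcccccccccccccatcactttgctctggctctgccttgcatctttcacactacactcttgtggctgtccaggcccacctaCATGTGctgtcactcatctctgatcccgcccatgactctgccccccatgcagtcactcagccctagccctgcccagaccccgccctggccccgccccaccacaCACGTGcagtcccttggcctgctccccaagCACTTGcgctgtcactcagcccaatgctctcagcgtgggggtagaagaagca
Mef2c: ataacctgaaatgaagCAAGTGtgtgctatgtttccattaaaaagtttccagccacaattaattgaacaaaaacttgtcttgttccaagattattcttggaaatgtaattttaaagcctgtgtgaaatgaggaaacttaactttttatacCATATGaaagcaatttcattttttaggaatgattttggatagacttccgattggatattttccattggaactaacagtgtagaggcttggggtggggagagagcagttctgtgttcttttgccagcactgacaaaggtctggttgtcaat
Myf5: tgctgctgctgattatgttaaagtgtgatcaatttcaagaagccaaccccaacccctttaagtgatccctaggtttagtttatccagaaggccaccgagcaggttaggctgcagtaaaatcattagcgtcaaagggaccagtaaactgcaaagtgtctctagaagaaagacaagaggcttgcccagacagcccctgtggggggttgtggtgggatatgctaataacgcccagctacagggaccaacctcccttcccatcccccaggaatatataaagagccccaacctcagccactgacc

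Tmem8c encodes myomaker, the multi-pass membrane protein that begins the merging of myoblast membranes. It was at 1.05, 0.52 and 0.60 TPM in aged SW033291 libraries, against 1.40, 0.55 and 0 TPM in aged vehicle libraries of batch 2. The aged vehicle libraries of batch 1 had 1.52, 0.23 and 0.62 TPM, against 0.13, 0.28, 0 and 0 TPM in the young vehicle libraries. Every value above 0.28 TPM came from an aged library, although aged vehicle batch 1 replicate 3 fell within the young range and aged vehicle batch 2 replicate 8 was listed at 0. The log2 difference with age was 0.64 (SE 0.31, 95% interval -0.01 to 1.30), with an unadjusted p of 0.0543 in limma and an adjusted p of 0.515. For SW033291 it was 0.14 (SE 0.33, -0.56 to 0.84, limma adjusted p = 0.878).

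Gm7325 encodes myomixer, the small membrane protein that completes fusion together with myomaker, and it was the 1 member that passed the test in any comparison. It was at 0.65, 1.69 and 0.97 TPM in aged SW033291 libraries, against 1.15, 0 and 1.80 TPM in aged vehicle libraries of batch 2. Within batch 1, aged vehicle libraries were at 2.17, 2.98 and 2.10 TPM, against 0, 0.23, 0 and 0 TPM in young vehicle libraries. Gm7325 was thus listed at 0 in 3 of 4 young libraries, and every aged library of batch 1 exceeded 2 TPM. The log2 difference with age in batch 1 was 1.69 on the log2(TPM + 1) scale (SE 0.31, 95% interval 1.03 to 2.34, limma adjusted p = 0.0283). Gm7325 passed the filter only through aged libraries, and its call held in 1 of 7 fits that left out 1 library. In the authors' deposited table of aged against young vehicle it had a log2 fold change of 4.80 (SE 1.23, adjusted p = 0.0058) at a mean normalised level of 3.55, so few reads lie behind it. The libraries behind that table were not named in it, and it was not taken as a second measurement. The other 7 members were not listed among its 813 genes.

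The call for Gm7325 was close to the threshold. It ended when any library of the comparison other than aged vehicle batch 1 replicate 4 was left out (differences of 1.57 to 1.76 over all 7 such fits, limma adjusted p 0.0426 without replicate 4 and up to 0.0976 otherwise), with a pseudocount of 0.1 (4.21, adjusted p = 0.0526), and without the filter (1.69, adjusted p = 0.0595). Gm7325 and Tmem8c reached 1 TPM only in aged libraries, 6 and 3 of them, so both passed the filter through the group in which they were high, and that they differed between age groups is in part set by the filter. Among aged vehicle libraries, Gm7325 was lower in batch 2 than in batch 1 without overlap, with a difference of -0.90 (SE 0.33, 95% interval -1.60 to -0.20, limma adjusted p = 0.164). Marker RNA of some other cell types differed with age in batch 1 as well. The 6 tendon cell markers summed to 71.8 to 125.5 TPM in aged vehicle and 183 to 255.2 TPM in young vehicle libraries, and the 8 fibro-adipogenic progenitor markers to 432.6 to 756.9 TPM in aged vehicle and 850.2 to 1193 TPM in young vehicle libraries, both without overlap and with 0 markers of either list at 0 in all libraries of a group. The sums of the other marker lists overlapped, and 11.6% of single tested genes did not overlap in this comparison. Fewer cells and less marker RNA per cell cannot be told apart here. As deviations from the group means, Gm7325 was set against every marker list. Its Pearson r was 0.28 with the neutrophil sum (0.50 without aged vehicle batch 1 replicate 4) and 0.46 with the macrophage sum (0.52 without it). With the lymphocyte sum it was 0.35 (0.56 without it) and with the red cell sum 0.29 (0.49 without it). The part of these cells in the age differences of Gm7325 and the other members was not tested. SW033291 differed from vehicle by 0.18 (SE 0.33, -0.52 to 0.88, limma adjusted p = 0.841), and this interval includes both a fall and a rise.

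**Figure D4:**
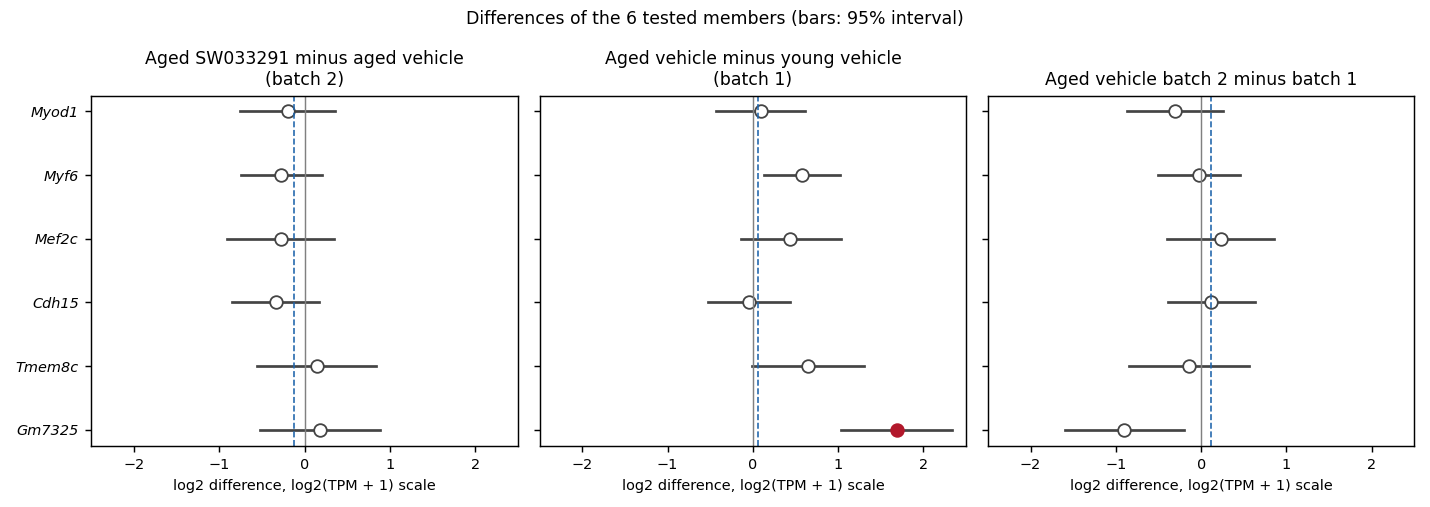
Log2 differences (horizontal axes, log2(TPM + 1) scale) of the 6 tested members with 95% intervals, in 3 panels by comparison; the dashed line is the median of all 11876 tested genes, and a filled dot marks an adjusted p below 0.05. Gm7325 with age, at 1.69, is the 1 filled dot, and all SW033291 intervals cross 0.

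Across the SW033291 comparison, which asks whether 4 weeks of 15-PGDH inhibition altered aged muscle, 0 of the 6 tested members passed and 0 had groups that did not overlap. Over all genes, limma called 0 of 11876 (0%), 1221 genes (10.3%) had an unadjusted p below 0.05, against 0 of the 6 members, and 17.1% had groups that did not overlap. The median of all genes was -0.13, against differences of -0.20 to -0.34 for Myod1, Myf6, Mef2c and Cdh15. With median-of-ratios scaling the median of all genes was -0.01, and over the 3 scaling alternatives these members lay between -0.30 and -0.05. In the authors' deposited table, 7 of 8 members had a negative fold change, 0 had p below 0.05, and their p ran from 0.188 (Cdh15) to 0.921 (Gm7325). The share of all its genes with a negative fold change was not counted, so the 7 are no result about the members. Tmem8c (-0.22, SE 1.51) and Gm7325 (-0.15, SE 1.53) were negative there but positive in the limma fit (0.14 and 0.18).

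Across the age comparison of batch 1, limma called 54 of 11876 genes (0.455%), 44 higher and 10 lower in aged vehicle, and 1178 (9.92%) had an unadjusted p below 0.05. The split was 36 higher and 20 lower with median-of-ratios scaling, 41 and 30 with quantile normalization and 35 and 28 without the 20 most abundant genes. Of the 6 tested members 1 was called, and 2, Myf6 and Gm7325, had groups that did not overlap, against 11.6% of tested genes. Because Gm7325 and Tmem8c entered through their aged values, these counts describe the members and support nothing about the set. Between aged vehicle of batch 2 and batch 1, limma called 267 genes (2.25%), 204 higher and 63 lower, with 49 higher and 103 lower under median-of-ratios scaling, 53 and 45 under quantile normalization. The tested members gave 0 calls there, and 1 of them, Gm7325, had groups that did not overlap, against 16.5% of genes. The median of all genes was 0.11 in that comparison and -0.01 with median-of-ratios scaling.

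A total of 7 lists of related genes were read against the same model, and unless stated a value in parentheses is the log2 difference followed by the limma adjusted p. The first holds genes that regenerating fibres make, among them embryonic and neonatal contractile proteins. Of its 10 genes, all tested, 1 rose and 0 fell with age in batch 1, against 0.455% of all genes called. An unadjusted p below 0.05 with age was found for 5 of these 10, 5 of 14 satellite cell markers, 5 of 13 textbook targets, 2 of 13 Notch genes, 2 of 26 genes of the transcription network, 1 of 22 other adhesion and fusion genes and 0 of 6 dividing cell genes, against 9.92% of all genes. Between the aged vehicle groups the counts were, in the same order, 4, 1, 5, 4, 5, 8 and 0, against 18.1% of all genes. With SW033291 they were 0, 1, 1, 2, 6, 5 and 1, against 10.3%. The lists were chosen with earlier results known, so the counts are a description and not particular to age. They also share genes: desmin (Des) is both a satellite cell marker and a textbook target, and Heyl both a satellite cell marker and a Notch gene. Tnnt2, the cardiac and embryonic troponin T, averaged 6.74 ± 1.85 TPM in aged vehicle (SD, n = 3) and 2.32 ± 1.03 TPM in young vehicle (SD, n = 4), a log2 difference of 1.24 (SE 0.24, limma adjusted p = 0.0447). Myl4, an embryonic myosin light chain, averaged 18.9 ± 0.998 TPM in aged vehicle (SD, n = 3) and 7.38 ± 2.61 TPM in young vehicle (SD, n = 4) and missed the threshold (1.30, SE 0.27, limma adjusted p = 0.0529). The list's median difference was 0.27, against 0.06 for all genes. The Tnnt2 call held in 2 of 7 fits that left out 1 library, those without aged vehicle replicate 4 or young vehicle replicate 3 (limma adjusted p 0.0225 to 0.149 over all 7). It also ended without the filter (0.106), without the 20 most abundant genes (0.0502) and with only both groups in the model (0.113). With SW033291 the list had 0 calls, with Tnnt2 at 0.43 (limma adjusted p = 0.565) and the imprinted RNA H19 at -0.21 (limma adjusted p = 0.619). Between batches it also had 0 calls, with H19 at -0.56 and the neonatal myosin Myh8 at 0.85 (limma adjusted p = 0.0735 and 0.0741).

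The wider transcription network of the members (28 genes, 26 tested) had 0 calls in any comparison. With SW033291, 19 of the 26 were lower, with a median of -0.30 against -0.13 for all genes, led by the homeobox factor Six4 (-0.64, limma adjusted p = 0.407) and by Hdac4, a repressor of MEF2 (-1.0, limma adjusted p = 0.418). How many of all genes were lower was not counted, and their median was -0.01 with median-of-ratios scaling, on which this list was not recounted. With age, Vgll2, a cofactor in muscle, averaged 67.1 ± 32.7 TPM in aged vehicle (SD, n = 3) and 35.4 ± 5.74 TPM in young vehicle (SD, n = 4), and did not pass (0.81, limma adjusted p = 0.368). Between batches, Hdac4 differed by 1.31 (limma adjusted p = 0.0685) and Id3, an inhibitor of helix-loop-helix factors, by -0.51 (limma adjusted p = 0.203).

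Other adhesion and fusion genes (29 listed, 22 tested) had 0 calls with SW033291 or age. With SW033291, 21 of 22 were lower, with a median of -0.28 against -0.13 for all genes, and the lowest p belonged to the adaptor Crkl (-0.52, limma adjusted p = 0.394) and to Elmo2, a partner of DOCK1 (-0.43, limma adjusted p = 0.418). The share of all genes that were lower was not counted. Their median moved to -0.01 with median-of-ratios scaling, on which the list was not recounted, so the 21 are no result about the list. With age the lowest p belonged to the netrin receptor Neo1 (0.33, limma adjusted p = 0.301) and to the GTPase Cdc42 (0.20, limma adjusted p = 0.566). Between the aged vehicle groups, where 2.25% of all genes were called, 3 of 22 were higher in batch 2 and 0 lower: the membrane repair gene Dysf (0.71, limma adjusted p = 0.028), Neo1 (0.59, 0.0321) and Elmo2 (0.63, 0.0459). All 3 stayed positive under the scaling alternatives, but each was called under 1 of 3 of them. Leaving out replicate 2 or 3 of batch 2 or replicate 2 of batch 1 ended all 3 calls (limma adjusted p 0.0949 to 0.187), and leaving out replicate 3 of batch 1 ended those of Neo1 (0.0686) and Elmo2 (0.0689), as did replicate 8 of batch 2 for Elmo2 (0.0605). With only both groups in the model all 3 calls ended (0.317 to 0.358), and that of Elmo2 also ended without the filter (0.0553).

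Satellite cell markers (16 listed, 14 tested) had 0 calls in any comparison. With SW033291 the lowest p belonged to the adhesion molecule Vcam1 (-0.89, limma adjusted p = 0.442) and to the integrin Itga7 (-0.34, 0.558). With age it belonged to the Notch target Heyl (-0.72, limma adjusted p = 0.34) and to desmin, Des (0.29, 0.363), which passed without aged vehicle batch 1 replicate 4 (0.45, limma adjusted p = 0.0194). Des, at 1644 to 2393 TPM, is also among the skeletal muscle markers and the textbook targets, so it is not particular to satellite cells. Between batches the lowest p belonged to Fgfr4 (-0.68, limma adjusted p = 0.147) and Ncam1 (0.28, 0.542). Genes of Notch signalling (14 listed, 13 tested), a pathway that keeps satellite cells quiescent, also had 0 calls. The listed genes differ in role, so the sign of a single gene does not give that of the pathway. The ligand gene Dll1 (-0.64, limma adjusted p = 0.418) and the target Hes1 (-0.75, 0.441) led with SW033291, Hes6 (0.62, 0.214) and Heyl with age, and Hes6 (-0.73, 0.0835) and Dll4 (0.58, 0.217) between batches.

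Textbook targets of the myogenic factors and MEF2 (13 genes, all tested) had 0 calls with SW033291 or age. The lowest p belonged to the calcium channel gene Cacna1s (-0.29, limma adjusted p = 0.463) and the acetylcholine receptor gene Chrna1 (-0.57, 0.522) with SW033291. With age, Chrna1 averaged 14.8 ± 7.52 TPM in aged vehicle (SD, n = 3) and 5.70 ± 0.546 TPM in young vehicle (SD, n = 4), at 1.13 (limma adjusted p = 0.0899, and 0.0197 without aged vehicle batch 1 replicate 4), and Pgam2 was at -0.33 (0.179). Between batches, Myom1, the M-band protein myomesin, was higher in batch 2 (0.76, limma adjusted p = 0.0128) with 824.9 ± 95.1 TPM in batch 2 and 485.6 ± 30.0 TPM in batch 1 (SD, n = 3 each), and Cacna1s was at 0.50 (0.0575). The Myom1 call ended without replicate 2 (0.0548) or 3 (0.0746) of batch 2 or replicate 2 (0.071) of batch 1, and with only both groups in the model (0.199). Only 6 of 12 dividing cell genes were tested, with 0 calls in any comparison. The replication genes Mcm4 (-0.61, limma adjusted p = 0.418) and Mcm3 (-0.44, 0.487) had the lowest p with SW033291, Mcm6 (0.39, 0.678) and Pcna (0.20, 0.76) with age, and Mcm4 (0.36, 0.373) and Mcm2 (0.23, 0.48) between batches.

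Within groups the tested members did not move as a block. As deviations of log2(TPM + 1) from the group means over the 13 libraries, 0 of 15 pairs had a Pearson r above 0.5 and 3 had one below -0.5. Mef2c and Myod1 went opposite ways (r = -0.72, and -0.77 without aged vehicle batch 1 replicate 4), as did Mef2c and Cdh15 (-0.84, and -0.32 without it) and Myf6 and Gm7325 (-0.63, and -0.86 without it). For Myf6 and Gm7325, aged vehicle batch 2 replicate 3 had the highest Myf6 value, 238.7 TPM, and Gm7325 at 0, and no r was computed without it. Without aged vehicle batch 1 replicate 4, Cdh15 and Tmem8c were at -0.53, against -0.21 with it, and Myf6 and Mef2c turned sign, at 0.31 against -0.39 with it. Lesser values also turned sign for Myod1 with Myf6 (-0.11 without it, 0.18 with it), Myod1 with Cdh15 (-0.05, 0.37), Myf6 with Cdh15 (-0.26, 0.36) and Cdh15 with Gm7325 (-0.07, 0.07). The points are 13 whole-muscle libraries that share their group means and scaling, and the values are a description. The genes whose deviations were most like those of Mef2c were Mapk8, Cep350 and Tnks2 (each 0.99, and 0.97 to 0.98 without that library), and 636 genes exceeded 0.9 with it. For Myod1 they were Zfp428 (0.98), Ctdnep1 (0.95) and Cdc34 (0.93), with 8 genes above 0.9. For Myf6 they were Pprc1, Rabep2 and Zfyve27 (each 0.92), and for Cdh15 Atp6v0d1 (0.94), Tmem175 (0.93) and Yars (0.93), which were 0.75 to 0.77 without aged vehicle batch 1 replicate 4. For Gm7325 they were Sfxn3 (0.95), Atp6v1g2 (0.89) and Qpctl (0.88), and for Tmem8c Snhg12 (0.87), Sbsn (0.85) and Gbp10 (0.85). Counted over all 13 libraries, 636 genes lay above 0.9 with Mef2c, against 0 to 10 for the other 5 tested members. These libraries include aged vehicle batch 1 replicate 4, at 336.9 TPM of Mef2c, and no count was made without it.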

How the data were processed

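RNA of whole quadriceps was sequenced by the submitters with a kit that does not mark strand, so overlapping transcripts of opposite strands cannot be told apart. STAR, RSEM, DESeq2, DESeq and the build mm9 are named per the submitters' processing notes, with versions and roles of each not given in the sources used here. A table of TPM deposited by the authors covers 24015 genes in 13 libraries. Per the file headers, their 2 comparison tables give log2 fold changes, standard errors, p-values, a test score per gene and a mean normalised level, a signal over the libraries compared. The age table lists 813 genes with an adjusted p of at most 0.0999 and was therefore treated as an extract of a longer table.

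Gene names in the deposited TPM table stood on the wrong rows. After 27 spreadsheet dates were turned back into symbols, all names were sorted in byte order and assigned to the rows. Mean TPM and the authors' deposited mean levels then had a Spearman correlation of 0.95 across 23988 genes, against -0.0171 as deposited. The log2 differences of SW033291 against vehicle had a Pearson correlation of 0.928 with those of the authors' deposited table across 6361 genes, and of 0.782 to 0.968 over the 50 neighbouring genes around each member. Genes are not independent replicates, and every value rests on this order.

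Values were analysed as log2(TPM + 1), which understates changes of low genes, for the 11876 genes that reached 1 TPM in 3 or more libraries. One limma 3.58.1 model (R 4.3.3) with a trend covered the 13 libraries in 4 groups, with Benjamini-Hochberg adjustment over all tested genes and a threshold of 0.05. Young libraries exist only in batch 1 and treated ones only in batch 2. Single genes below the filter had exact two-sided permutation tests over libraries. The script was tested on simulated data. Depth is unknown, since TPM keep none.

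The members and lists were chosen with earlier results of these data known. Named genes were every member, Myog, the genes of each list past the threshold, the 2 of each list with the lowest p per comparison, and the 3 genes with deviations most like those of each tested member.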

Additional observations from a re-analysis of the deposited data

Results flagged for a closer look

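Gm7325 in young vehicle replicate 3, at 0.23 TPM, lay apart from the other 3 young libraries, which were all listed at 0, by the gap between it and its nearest neighbour against the range of the group. Chance marks about 1 in 20 groups in this way, and a single low TPM value above 0 is enough when the rest of a group is at 0.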

How the results depend on the processing

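Over all alternatives, 233 member differences kept their direction and side of the threshold, 26 changed sign, 10 lost the call and 1 gained one. Counts over all genes moved most. For SW033291, 4 genes were called with a pseudocount of 0.1 and 4 without the 3 libraries with most neutrophil transcripts, an alternative chosen after seeing the data, and 0 to 1 when 1 library was left out. For age, 27 were called without the filter, 24 with only both groups compared and 297 with aged vehicle of both batches pooled, and 19 to 92 when 1 library was left out (19 without aged vehicle batch 1 replicate 2, 92 without its replicate 4). Between batches, 152 were called with median-of-ratios scaling, 98 with quantile normalization, 1 with only both groups compared, 1037 without the 3 neutrophil-rich libraries, and 18 to 1643 when 1 library was left out (18 without aged vehicle batch 1 replicate 2, 1643 without its replicate 4).

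With age, 0 members were called with a pseudocount of 0.1, without the filter and without the 3 neutrophil-rich libraries, and 0 to 1 when 1 library was left out; between batches the range was 0 to 1, the call being Mef2c. Gm7325 with age was 1.69 (limma adjusted p = 0.00999) with only both groups compared, 2.39 (0.0304) with a pseudocount of 0.5, 1.24 (0.0477) with both batches pooled and 1.75 (0.06) without the 3 neutrophil-rich libraries. Replicate numbers 3 and 4 are shared by aged and young libraries of batch 1, and their deviations correlated at 0.17 and 0.04. Correlations of deviations within such small groups cannot show whether libraries with the same number were handled together. With a replicate block 4 genes and 0 members were called, and Gm7325 was 1.66 (limma adjusted p = 0.567).

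Signs changed only for differences that no fit called, apart from Mef2c between batches. Without the 3 neutrophil-rich libraries, Myod1 was 0.01 for SW033291, Mef2c -0.02 and Cdh15 0.29 for age, and Cdh15 -0.07 between batches. With aged vehicle pooled, Cdh15 was 0.01 and Myod1 -0.06, and Myod1 was -0.0037 without the 20 most abundant genes. Cdh15 between batches was -0.02 with median-of-ratios scaling and -0.02 with quantile normalization. Leaving out 1 library gave, for SW033291, -0.25 to 0.49 for Gm7325, -0.18 to 0.46 for Tmem8c, -0.43 to 0.0043 for Myod1 and -0.62 to 0.39 for Myog. For age it gave -0.04 to 0.30 for Myod1, -0.02 to 0.71 for Mef2c and -0.24 to 0.29 for Cdh15. Between batches it gave -0.25 to 0.15 for Myf6, -0.46 to 0.17 for Tmem8c, -0.03 to 0.70 for Mef2c and -0.22 to 0.31 for Cdh15. Other named genes passed when a library was left out: with age, Myl4 (1.48, limma adjusted p = 0.0291) without young vehicle replicate 3; between batches, Hdac4 (1.72, 0.00706), Hes6 (-0.88, 0.0178), Myh8 (0.94, 0.0294) and Cacna1s (0.42, 0.0469) without aged vehicle batch 1 replicate 4, and Hdac4, Myh8, Cacna1s, Dll4 (0.85, 0.0483) and H19 (-0.67, 0.0392) without aged vehicle batch 2 replicate 8. The cause was not tested.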

Other observations

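The ratio of Myf6 to Myod1 in TPM, looked at after the values were seen, was 9.60, 9.17 and 9.26 in aged SW033291 libraries and 8.96, 18.6 and 5.61 in aged vehicle libraries of batch 2. In batch 1 it was 8.16, 7.81 and 8.01 in aged vehicle libraries and 4.59, 7.39, 6.29 and 5.00 in young vehicle libraries. Both the treated libraries and the aged vehicle libraries of batch 1 were close to each other within their group, although Myf6 and Myod1 each varied there by over 1.5 times, and aged vehicle batch 2 replicate 3 had the highest ratio. The aged vehicle ratios of batch 1 all lay above the young ones. Gm7325 and Myog, which is outside the set, had a Pearson r of 0.86 as deviations from the group means over 13 libraries, with or without aged vehicle batch 1 replicate 4, and Myog and Myod1 one of 0.65. A different library, aged vehicle batch 2 replicate 3, had the lowest Myog value, 1.3 TPM, and Gm7325 at 0. No r was computed without that library, so how far these values rest on it is not known.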
